A study of Mus musculus with 8 samples.

Results

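The genes described here are 44 mouse genes of DNA replication and mitosis, chosen by symbol and read from a table of 37558 genes counted in 8 libraries of P19 cells. P19 is a mouse embryonal carcinoma line, a proliferating stem-like line that can form neurons or muscle in culture. The question of the study was whether MyoD, a skeletal muscle factor, becomes a neuronal one when it takes over the DNA-binding domain of NeuroD2, a neuronal factor. P19 cells received lentivirus for GFP (the control), MyoD, NeuroD2, or a chimera in which the basic helix-loop-helix (bHLH) domain of MyoD was exchanged for that of NeuroD2. Further groups carried mutants of the chimera, labelled WC and WCS, whose changes the labels do not define. The chimera and WCS have a second library each, labelled with a multiplicity of infection (MOI, infectious virus per cell) of 100. No label states an MOI for the rest, or the time of harvest. All groups, the GFP control included, were infected with polybrene, given fresh medium after 24 h and moved to Neurobasal medium with B27, a medium for neurons, after 48 h. Each of the 8 groups was 1 library of oligo-dT selected RNA from a whole culture, with no replicate, so the interval given with a ratio covers counting error only.

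A cell copies its DNA in S phase and divides it in mitosis, and each step has its own proteins. Before S phase the origin recognition complex, with Cdc6 and Cdt1, loads the MCM helicase onto DNA (origin licensing), and Cdc45 and the GINS complex then turn the helicase on. Polymerase alpha with its primase starts the new strands, Pcna clamps the polymerases to DNA, and ribonucleotide reductase, thymidylate synthase and thymidine kinase supply nucleotides. Cyclin-dependent kinases start S phase and mitosis, and mitotic kinases, the spindle checkpoint and the anaphase-promoting complex control how chromosomes separate. E2F factors drive many of the replication genes, and B-Myb (Mybl2) and FoxM1 drive many of the mitotic ones. Cells that leave the cycle to become neurons or muscle fibres are known to shut most of these genes down.

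Library totals ran from 26410500 counts in the chimera to 43984066 in GFP, and values are CPM, counts scaled to a common library size after TMM normalization. The members together held 1.05% of all counts in GFP, 1.07% in the chimera and 0.539% in WCS at MOI 100, the lowest of the 8 libraries. Lineage markers moved at the same time. The summed CPM of 8 markers of undifferentiated P19 cells was 2660 in GFP. It was 390 in the chimera at MOI 100, 424 in WCS at MOI 100 and 663 to 1150 in the others. Pou5f1 (1230 CPM) and Lin28a (1090 CPM) held most of the GFP sum. Sox2 of that list was below GFP (124 CPM) only in MyoD (95.7) and the chimera at MOI 100 (108), with 126 to 205 elsewhere. Zfp42 and Dppa5a of that list stood near 0 in every library, GFP included. The sum of 10 neuron markers was 265 in MyoD, 364 in GFP and 740 in the chimera, and 1930 to 5300 in the other 5 libraries, highest in WCS at MOI 100. The sum of 10 skeletal muscle markers was 10800 in MyoD, 1070 in the chimera and 1720 in the chimera at MOI 100, and 64.7 or less elsewhere. Fibroblast and glia markers summed to 117 or less in each library. The 8 libraries also split by Rn7s6, a small RNA gene, which had 0.565 to 1.28 CPM in the chimera, NeuroD2 and both MOI 100 libraries but 13.0 to 16.3 CPM in the remaining 4. No label gives a batch for this split. The labels name RNeasy or Trizol as the means of RNA extraction without saying which library had which. The comparisons of GFP with NeuroD2, the chimera and both MOI 100 libraries cross the split. So do those of MyoD with NeuroD2 and the chimera, of the chimera with WC and WCS, and of WCS with WCS at MOI 100. The part of the split in them was not tested.

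Every member was measured in every library, with 523 counts or more. From the lowest to the highest of the 8 libraries a member spanned 1.44-fold (Tyms) to 4.34-fold (Mybl2), with a median span of 2.49-fold. For 39 of the 44 members the lowest library was WCS at MOI 100, and for 26 the highest was GFP. The chimera was highest for 11 and MyoD for 3. The geometric mean CPM of the 44 members, as a percentage of GFP, was 95.1 in the chimera, 83.5 in MyoD, 73.3 in WC, 72.0 in WCS, 67.8 in NeuroD2, 66.5 in the chimera at MOI 100 and 46.5 in WCS at MOI 100. In bulk RNA a smaller share of dividing cells and less of each RNA per dividing cell cannot be told apart. The spans differed by role, with class medians of 3.23-fold for mitotic kinases and checkpoint proteins, 2.99-fold for cyclins and CDKs, 2.46-fold for licensing genes, 2.25-fold for spindle, centromere and chromosome proteins, 2.15-fold for the transcription factors, 1.98-fold for nucleotide supply and 1.78-fold for fork proteins.

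**Figure D1:**
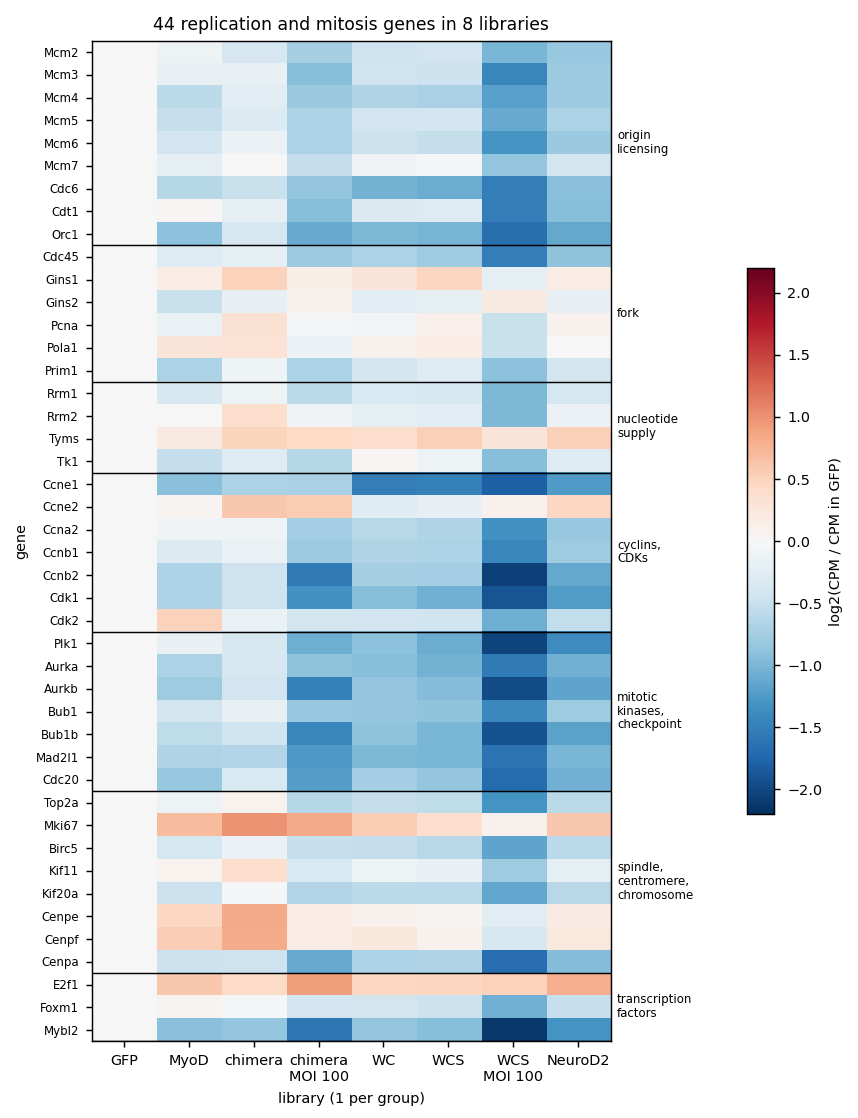
Each row is 1 of the 44 genes and each column 1 library, and colour gives the log2 ratio of CPM to the GFP library (blue lower, red higher), so the GFP column is 0 by construction. The column of WCS at MOI 100 is the bluest, while Mki67 and E2f1 are red or pale in every column.

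Promoter sequence was read for every member with a window, since many cell-cycle genes are known to share short promoter elements. RefSeq promoter windows (GRCm38.p6, 250 bases before to 50 after a gene's start) were found for 36 of the 44 members, leaving out Mcm4, Gins1, Gins2, Ccne2, Ccna2, Aurkb, Kif20a and Foxm1. Of the 37 windows, 27 ended in bases that were found in a GENCODE M21 transcript of the gene. The windows of Mcm5, Mcm6, Pcna, Rrm2, Tk1, Aurka, Mad2l1, Kif11, Cenpe and Mybl2 did not, so their starts were not matched to a transcript. Both strands were searched for CCAAT (the NF-Y box), TTTGAA (the core of the cell-cycle homology region, CHR, bound by B-Myb and DREAM complexes), TTCGCGC and TTGGCGC (forms of the E2F site), and for 3 E-boxes, the kind of site that bHLH factors bind (CAGCTG as well as CAGGTG as well as CAGATG). The forms TTCGCGC and TTGGCGC can overlap on opposite strands, and did so in Mcm5, Mcm6 and Mcm7. A single stretch there matched both forms, and these genes are counted under each form. The printed stretches are the 250 bases before the start, in lower case with every match to any of these motifs on either strand in capitals. Matches in the 50 bases after the start were counted but are not printed. In the printed genes these were TTTGAA at position 5 in Ccnb2, TTCGCGC at position 25 in Mcm6 and CAGCTG at position 26 in Mybl2. Ccnb2 and Mybl2 are shown as the members with the widest range over the libraries, and Cdc20, Cdk1 and Mcm6 as examples, chosen after the search, of a mitotic gene with CCAAT and TTTGAA, a gene with both these and both E2F forms, and a licensing gene with the E2F forms. Ccnb2 lies at chr9:70421555-70421804 (minus strand), Cdc20 at chr4:118437344-118437593 (minus strand), Cdk1 at chr10:69352913-69353162 (minus strand), Mcm6 at chr1:128359706-128359955 (minus strand) and Mybl2 at chr2:163054385-163054634 (plus strand).
Ccnb2: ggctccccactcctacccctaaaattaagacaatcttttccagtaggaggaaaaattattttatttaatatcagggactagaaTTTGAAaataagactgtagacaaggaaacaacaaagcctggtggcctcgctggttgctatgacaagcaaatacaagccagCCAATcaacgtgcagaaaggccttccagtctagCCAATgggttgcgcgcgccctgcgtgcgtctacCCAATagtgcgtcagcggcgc
Cdc20: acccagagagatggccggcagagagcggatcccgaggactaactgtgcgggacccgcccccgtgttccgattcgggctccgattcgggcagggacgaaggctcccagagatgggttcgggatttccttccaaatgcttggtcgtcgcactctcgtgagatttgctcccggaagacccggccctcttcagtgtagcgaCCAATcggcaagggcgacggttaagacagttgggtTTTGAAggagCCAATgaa
Cdk1: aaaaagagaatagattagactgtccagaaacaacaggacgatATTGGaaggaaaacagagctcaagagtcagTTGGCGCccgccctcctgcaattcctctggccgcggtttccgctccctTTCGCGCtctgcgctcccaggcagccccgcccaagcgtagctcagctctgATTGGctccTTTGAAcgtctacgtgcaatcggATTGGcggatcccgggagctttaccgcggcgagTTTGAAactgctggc
Mcm6: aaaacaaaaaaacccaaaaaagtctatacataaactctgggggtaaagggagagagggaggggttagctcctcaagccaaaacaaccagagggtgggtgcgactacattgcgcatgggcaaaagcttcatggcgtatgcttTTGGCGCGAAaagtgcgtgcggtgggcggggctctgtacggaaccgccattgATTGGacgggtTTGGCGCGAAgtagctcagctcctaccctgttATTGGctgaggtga
Mybl2: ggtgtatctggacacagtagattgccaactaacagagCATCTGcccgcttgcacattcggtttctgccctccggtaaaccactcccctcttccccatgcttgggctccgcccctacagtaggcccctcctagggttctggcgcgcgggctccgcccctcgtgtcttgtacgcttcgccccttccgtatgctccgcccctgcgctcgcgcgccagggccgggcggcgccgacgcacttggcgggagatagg

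In these windows CCAAT was present for 27 of 36 members (75%), against 41.1% of all 27025 genes with a window and 43.6% of the 9554 expressed ones. TTTGAA was present for 13 (36.1%, against 20.2% of all and 13.8% of expressed genes), and all 13 also had CCAAT. These 13 were 4 of 6 mitotic kinase and checkpoint genes (Plk1, Aurka, Bub1b and Cdc20), 5 of 7 spindle, centromere and chromosome genes (Top2a, Mki67, Kif11, Cenpa and Cenpf), Ccnb2 and Cdk1, and Cdc45 and Mcm2. TTCGCGC was present for 5 members (13.9%, against 1.81% of all and 3.71% of expressed genes) and TTGGCGC for 9 (25%, against 2.85% and 5.33%). Of the 8 licensing genes with a window, 4 had the first form and 5 the second, and none of the 6 mitotic kinase and checkpoint genes had either. Of the E-boxes, CAGCTG was present for 7 members (19.4%, against 18.3% of all and 18.0% of expressed genes), CAGATG for 4 (11.1%, against 19.2% and 13.3%) and CAGGTG for 2 (5.56%, against 22.6% and 20.5%). Tk1, Ccne1, Mad2l1 and E2f1 had none of the motifs in the window, but the windows of Tk1 and Mad2l1 were not matched to a transcript. A match describes the letters of the window and does not show that a factor binds there. Only these exact letters were searched, so a window without a match may hold another form of a site, such as the E2F site.

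The licensing genes, which load the helicase before S phase, stood lowest in WCS at MOI 100 for all 9 members. Orc1, the large ATPase subunit of the origin recognition complex, stood at 93.5 CPM in GFP, 72.7 in the chimera, 50.2 in MyoD, 47.2 in WC, 46.1 in WCS, 43.6 in the chimera at MOI 100, 43.1 in NeuroD2 and 29.7 in WCS at MOI 100. It was thus highest in the control, and 3.15-fold lower (95% interval 2.93 to 3.38) in WCS at MOI 100. Cdt1, the loading factor that opens the helicase ring onto DNA, stood at 139.5 CPM in MyoD and 137 in GFP, 119 in the chimera, 112 in WCS, 109.9 in WC, 71.8 in NeuroD2, 71.7 in the chimera at MOI 100 and 47.7 in WCS at MOI 100. MyoD and GFP did not differ beyond counting error for Cdt1 (1.02-fold, interval 0.975 to 1.06), and MyoD stood 1.94-fold above NeuroD2 (1.84 to 2.05). Mcm7, a helicase subunit, moved least in the class, with 568 CPM in the chimera, 565 in GFP, 546 in WCS, 538 in WC, 493 in MyoD, 424 in NeuroD2, 392 in the chimera at MOI 100 and 310.5 in WCS at MOI 100. Its levels formed a group of 4 libraries, the control among them, with MyoD somewhat below them and NeuroD2 and the MOI 100 libraries lower still.

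The fork proteins moved less together than the licensing genes. Cdc45, which joins the helicase with GINS, had the same order of libraries as Orc1, at 94.7 CPM in GFP, 82.4 in the chimera, 77.6 in MyoD, 58.3 in WC, 55.2 in WCS, 54.7 in the chimera at MOI 100, 51.4 in NeuroD2 and 32.8 in WCS at MOI 100, 2.88-fold below GFP (2.69 to 3.09). Prim1, the catalytic primase subunit, was low in MyoD as well, with 74.0 CPM in GFP, 69.4 in the chimera, 61.0 in WCS, 56.2 in NeuroD2, 55.6 in WC, 45.7 in MyoD, 45.5 in the chimera at MOI 100 and 39.7 in WCS at MOI 100. It was the member with the highest ratio of the chimera to MyoD (1.52-fold, 1.41 to 1.63). Gins2, a GINS subunit, ran the other way. It was highest where the class was lowest, at 138 CPM in WCS at MOI 100 and 128 in the chimera at MOI 100, against 120.1 in GFP, 106 in NeuroD2, 106 in the chimera, 104 in WCS, 103 in WC and 85.2 in MyoD. At MOI 100 Gins2 stood 1.33-fold above WCS (1.27 to 1.39) and 1.21-fold above the chimera (1.15 to 1.27), each against the same construct without the label. The other fork genes, Gins1, Pcna and Pola1, spanned 1.66-fold to 1.79-fold, each highest in the chimera and lowest in WCS at MOI 100.

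Among the genes of nucleotide supply, the subunits of ribonucleotide reductase, the enzyme that makes deoxynucleotides, moved most. Rrm2, its regulated small subunit, stood at 487 CPM in the chimera, 373 in MyoD, 371 in GFP, 350.4 in the chimera at MOI 100, 339 in NeuroD2, 318 in WC, 317 in WCS and 187 in WCS at MOI 100. The chimera was 1.31-fold above GFP (1.28 to 1.34) and WCS at MOI 100 1.88-fold below the chimera at MOI 100 (1.82 to 1.94). Rrm1, the large subunit, was highest in GFP at 331 CPM, then 305 in the chimera, 261 in WC, 260.5 in MyoD, 258 in WCS, 254 in NeuroD2, 222 in the chimera at MOI 100 and 166 in WCS at MOI 100. Tyms, thymidylate synthase, was lowest in the control and had the narrowest span of all members, at 40.9 CPM in GFP, 46.9 in MyoD, 49.9 in WCS at MOI 100, 53.3 in WC, 55.5 in the chimera at MOI 100, 57.2 in the chimera, 58.5 in WCS and 58.8 in NeuroD2. NeuroD2 exceeded GFP by 1.44-fold for Tyms (1.34 to 1.54). Tk1, thymidine kinase, was the member with the highest ratio of WC to the chimera (1.25-fold, 1.14 to 1.36).

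Among cyclins and CDKs, the E-type cyclins, which start S phase with Cdk2, differed from each other. Ccne1 stood at 70.8 CPM in GFP, 43.5 in the chimera, 43.2 in the chimera at MOI 100, 37.6 in MyoD, 30.0 in NeuroD2, 25.2 in WCS, 24.6 in WC and 20.3 in WCS at MOI 100, so that every library with a delivered factor lay below GFP. It was the member farthest below GFP in WC (2.87-fold, 2.65 to 3.12) and in WCS (2.81-fold, 2.59 to 3.05). Ccne2 did not share this order, with 46.0 CPM in the chimera, 45.1 in the chimera at MOI 100, 41.6 in NeuroD2, 32.5 in WCS at MOI 100, 31.7 in MyoD, 30.5 in GFP, 27 in WCS and 25.4 in WC. Both E cyclins were lower in WC than in the chimera, by 1.77-fold for Ccne1 (1.61 to 1.94) and 1.81-fold for Ccne2 (1.66 to 1.99).

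The mitotic partners shared 1 order. Ccnb2, a B-type cyclin, stood at 246 CPM in GFP, 179 in the chimera, 154 in MyoD, 148 in WC, 146 in WCS, 113 in NeuroD2, 84.2 in the chimera at MOI 100 and 59.4 in WCS at MOI 100. It was 4.15-fold lower (3.95 to 4.36) in WCS at MOI 100 than in GFP. Cdk1, the kinase that B cyclins activate, stood at 346 CPM in GFP, 253 in the chimera, 216 in MyoD, 182 in WC, 166 in WCS, 148 in NeuroD2, 138 in the chimera at MOI 100 and 92.7 in WCS at MOI 100. The control was highest and the MOI 100 libraries lowest for both genes, whose promoters are printed above. Cdk2, the partner of cyclins E and A, was highest in MyoD at 135 CPM, against 94.8 in GFP, 85.6 in the chimera, 65.3 to 72.1 in the chimera at MOI 100, WC, WCS and NeuroD2, and 45.2 in WCS at MOI 100. MyoD exceeded NeuroD2 by 2.07-fold for Cdk2 (1.96 to 2.19) and the chimera by 1.58-fold (1.5 to 1.67).

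The mitotic kinases and checkpoint proteins were the class that stood lowest against GFP in each of the 7 other libraries. Its geometric mean, as a percentage of GFP, was 76.3 in the chimera, 66.7 in MyoD, 54.2 in WC, 50.8 in WCS, 47.1 in NeuroD2, 44.5 in the chimera at MOI 100 and 29.9 in WCS at MOI 100, and GFP was the highest library for all 7 members. Plk1, polo-like kinase and a driver of mitotic entry and spindle assembly, stood at 295 CPM in GFP, 264 in MyoD, 231 in the chimera, 158 in WC, 139.7 in the chimera at MOI 100, 138 in WCS, 113 in NeuroD2 and 71.6 in WCS at MOI 100. It set MyoD and the chimera apart from NeuroD2 more than any other member, by 2.34-fold (2.24 to 2.44) and 2.05-fold (1.96 to 2.14). Aurkb, the kinase of the chromosomal passenger complex, stood at 244 CPM in GFP, 181 in the chimera, 142 in MyoD, 134 in WC, 126 in WCS, 109 in NeuroD2, 87.5 in the chimera at MOI 100 and 62.4 in WCS at MOI 100. MyoD, which lay near GFP for Plk1, lay well below it for Aurkb. Bub1, a kinase of the spindle checkpoint, had the narrowest span of the class, at 262 CPM in GFP, 233 in the chimera, 198 in MyoD, 152 in NeuroD2, 147 in the chimera at MOI 100, 145 in WC, 141 in WCS and 98.4 in WCS at MOI 100.

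**Figure D2:**
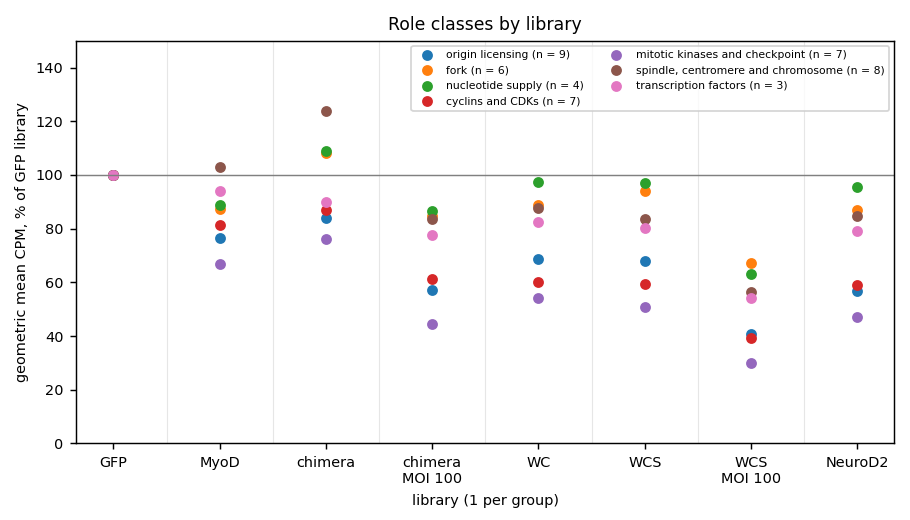
Points give the geometric mean CPM of each of the 7 role classes in each library as a percentage of the GFP library, on a linear axis from 0. Mitotic kinases and checkpoint genes are the lowest point in every library other than GFP, down to 29.9% in WCS at MOI 100, and spindle, centromere and chromosome genes reach 124% in the chimera.

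Spindle, centromere and chromosome proteins were divided. Top2a, the topoisomerase that untangles sister chromatids, stood at 1088 CPM in the chimera, 1027 in GFP, 948 in MyoD, 713 in WC, 697 in WCS, 683 in NeuroD2, 667 in the chimera at MOI 100 and 413 in WCS at MOI 100. Cenpa, the histone variant that marks centromeres, was highest in GFP at 206 CPM, with 150.5 in the chimera, 148 in MyoD, 131 in WCS, 129 in WC, 106 in NeuroD2, 96.0 in the chimera at MOI 100 and 64.3 in WCS at MOI 100. Both were thus lowest in the same library. Mki67, the chromosome-surface protein known as the Ki-67 proliferation marker, was lowest in the control, at 158 CPM in GFP against 169 in WCS at MOI 100, 204 in WCS, 233 in WC, 239 in NeuroD2, 258 in MyoD, 282 in the chimera at MOI 100 and 314 in the chimera. The chimera exceeded GFP by 1.98-fold for Mki67 (1.92 to 2.05), by 1.78-fold (1.71 to 1.86) for Cenpe, a kinetochore motor, and by 1.76-fold (1.71 to 1.83) for Cenpf, a kinetochore protein. These 3 genes have the long transcripts of the class (10061 bases for Mki67, 11130 for Cenpf and 7910 for Cenpe in the longest coding model), and length moved with the ratios over all genes. In the chimera over GFP the median log2 ratio was -0.16 in the shortest 25% of transcripts and 0.23 in the longest 25%, and in WCS at MOI 100 over GFP -0.34 and 0.35. With that trend removed (an alternative chosen after seeing the data), the log2 ratio of the chimera to GFP went from 0.99 to 0.59 for Mki67, from 0.83 to 0.56 for Cenpe and from 0.82 to 0.37 for Cenpf. For WCS at MOI 100 over GFP, Mki67 changed direction, from 0.09 to -0.44, while Cenpe went from -0.23 to -0.63 and Cenpf from -0.35 to -0.94.

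The 3 transcription factors went 3 ways. Mybl2, which activates mitotic genes in late S phase, had the widest span of all 44 members, with 144 CPM in GFP, 79.9 in the chimera, 78.4 in WC, 76.3 in MyoD, 75.3 in WCS, 58.1 in NeuroD2, 47.6 in the chimera at MOI 100 and 33.2 in WCS at MOI 100. GFP stood apart from all libraries with a delivered factor, the nearest being 1.8-fold lower (1.72 to 1.90). Foxm1, the activator of G2 and mitotic genes, stood at 241 CPM in MyoD, 232 in GFP, 226 in the chimera, 175 in WC, 174 in the chimera at MOI 100, 167 in WCS, 164 in NeuroD2 and 112 in WCS at MOI 100. E2f1, the S-phase activator, was lowest in the control, at 41.4 CPM in GFP, 55.4 in the chimera, 56.6 in WC, 57.3 in WCS, 59.1 in WCS at MOI 100, 62.7 in MyoD, 71.9 in NeuroD2 and 78.0 in the chimera at MOI 100. It stood 1.43-fold above GFP (1.34 to 1.52) in WCS at MOI 100, the library in which most other members were lowest, and with the length trend removed its log2 ratio there was 0.60 in place of 0.51.

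**Figure D3:**
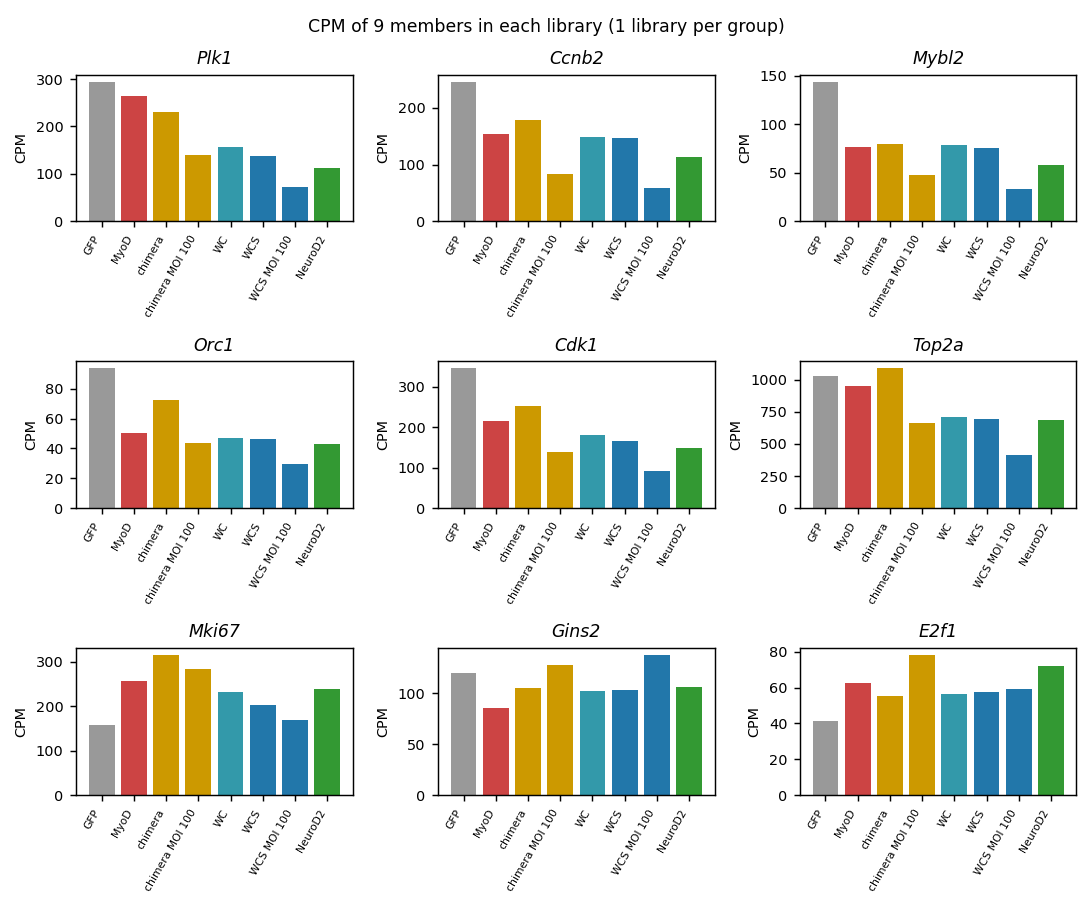
Bars give CPM from 0 for 9 members in the 8 libraries, 1 library per group and so without error bars, each panel on its own scale. Plk1, Ccnb2, Mybl2, Orc1, Cdk1 and Top2a are lowest in WCS at MOI 100, whereas Gins2 is highest there and Mki67 and E2f1 are lowest in GFP.

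The comparisons with GFP asked how each delivered factor changed the cells, and all share the GFP library, so their values stand side by side only. A member was counted as higher or lower when its log2(CPM + 0.5) differed by 1.5-fold or more and the higher library had at least 5 CPM, and the same rule over all genes at that level gives the background. MyoD had 2 members higher (Mki67 and E2f1; background 17.0%) and 11 lower (15.5%), with a median log2 ratio of -0.32. Its lower members were Mybl2, Ccne1, Orc1, Cdc20, Aurkb, Prim1, Aurka, Cdk1, Ccnb2, Mad2l1 and Cdc6. With the trend over gene length removed, an alternative added after seeing the data, Mki67 (0.29), Aurka (-0.56), Ccnb2 (-0.51) and Prim1 (-0.53) were within 1.5-fold and Cdk2 (0.61) was above it. NeuroD2 had 2 higher (again Mki67 and E2f1; background 24.2%) and 25 lower (19.9%), with a median of -0.74 and Plk1 lowest at -1.38. Those 25 held all 7 mitotic kinase and checkpoint genes and 8 of 9 licensing genes. With the length trend removed Mki67 (0.11) was again within 1.5-fold of GFP and Foxm1 (-0.62) counted as lower. The chimera was the library nearest to GFP, with 4 members higher (Mki67, Cenpe, Cenpf and Ccne2; background 16.0%), 3 lower (Mybl2, Ccne1 and Mad2l1; 13.3%) and a median of -0.16. With the length trend removed Cenpe (0.56) and Cenpf (0.37) were within 1.5-fold and Gins1 (0.71) was above it.

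At MOI 100 the chimera had 2 members higher than GFP (E2f1 and Mki67; background 26.2%) and 27 lower (23.0%), with a median of -0.70. With the length trend removed Mki67 there (0.34) was within 1.5-fold and Ccne2 (0.59) was above it. Ccne1 (-0.57), Prim1 (-0.49) and Tk1 (-0.38) then no longer counted as lower, Rrm1 (-0.64) did, and the lower members numbered 25. WC had 0 higher (background 18.8%) and 18 lower (13.3%), with a median of -0.46. WCS had 0 higher (19.1%) and 20 lower (14.2%), with a median of -0.50. In both mutants all 7 mitotic kinase and checkpoint genes and 5 of 7 cyclins and CDKs were among the lower. With the length trend removed WC had 0 higher and 17 lower, and WCS had 1 higher (Gins1, 0.61) and 19 lower. WCS at MOI 100 had 0 higher (27.7%) and 34 lower (26.4%), with a median of -1.18. The 10 members not counted as lower there were Gins1, Gins2, Pcna, Pola1, Tyms, Ccne2, Mki67, Cenpe, Cenpf and E2f1. With the length trend removed Cenpf (-0.94), Pola1 (-0.66) and Cenpe (-0.63) counted as lower and E2f1 (0.60) as higher. The median over all genes lay between -0.02 and 0.01 in these comparisons. At least 2-fold lower than GFP were 28 members in WCS at MOI 100 (background 15.2%), 10 in NeuroD2 (8.82%), 10 in the chimera at MOI 100 (11.9%), 7 in WCS (5.73%), 2 in WC (4.82%), 0 in MyoD (6.86%) and 0 in the chimera (5.43%).

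A list of 12 ubiquitous genes often used as a scale, none of them a cell-cycle gene, moved with the members. Its median log2 ratio to GFP was -0.16 in MyoD, -0.32 in the chimera, -0.47 in WCS, -0.51 in WC, -0.57 in the chimera at MOI 100, -0.64 in NeuroD2 and -1.0 in WCS at MOI 100. The glycolytic genes Gapdh (6630 CPM in GFP and 1950 in WCS at MOI 100) and Pgk1 (1690 and 458) were lowest, while Actb (1860 and 2070) and Ywhaz (674 and 797) were slightly higher in WCS at MOI 100. Whether the members' lower values in the comparisons with GFP and the lower values of these genes belong together was not tested.

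**Figure D4:**
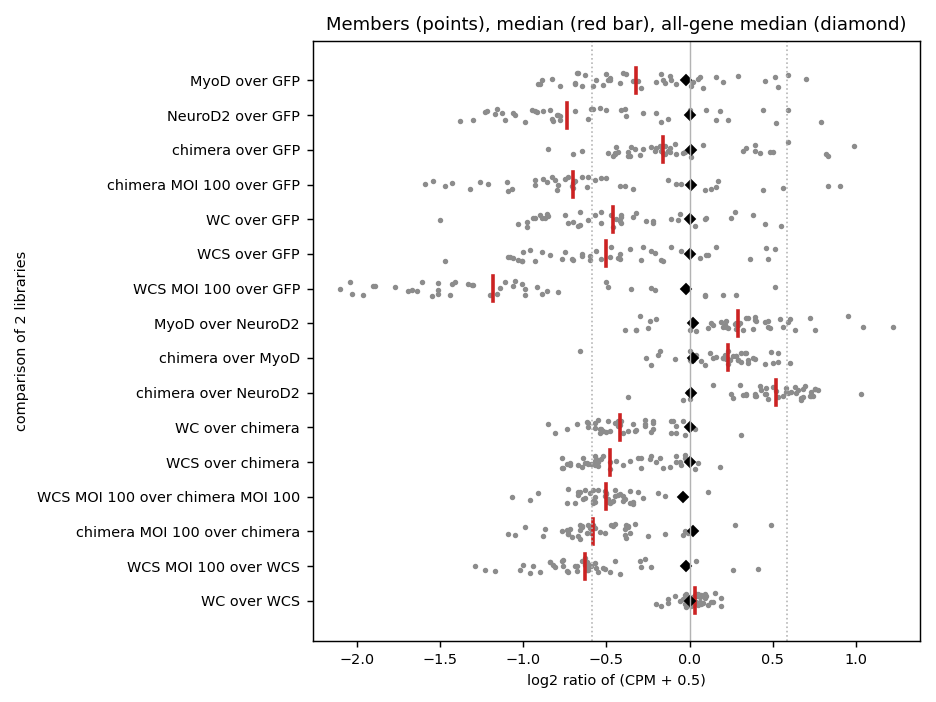
Each grey point is 1 of the 44 members, the red bar their median and the black diamond the median of all genes, on the log2 ratio of CPM + 0.5; dotted lines mark 1.5-fold. The members' median lies left of the diamond in each comparison with GFP, furthest for WCS at MOI 100 (-1.18), and at 0.03 for WC over WCS.

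Among MyoD, NeuroD2 and the unmutated chimera, all without the MOI label, the members' geometric mean was highest in the chimera, then MyoD, then NeuroD2. MyoD over NeuroD2 had 8 of 44 members higher, near the background share (16.4%), and 0 lower (19.8%), with a median of 0.29. The 8 were Plk1, Cdk2, Cdt1, Ccna2, Mcm2, Mcm3, Bub1b and Cdc45. With library totals in place of TMM factors 4 members were higher (background 12.6%) and 0 lower. The chimera over MyoD had 1 higher (Prim1; background 11.4%) and 1 lower (Cdk2; 11.7%), with a median of 0.23. With library totals in place of TMM factors these counts were 5 and 0. The chimera over NeuroD2 had 18 higher (background 7.85%) and 0 lower (13.1%), with a median of 0.52, among them 6 of 7 mitotic kinase and checkpoint genes and 4 of 7 cyclins and CDKs. The ubiquitous genes had medians of 0.35, -0.09 and 0.23 in these 3 comparisons. MyoD over NeuroD2 and the chimera over MyoD cross the Rn7s6 split, whose part in them was not tested.

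The mutants were compared with the chimera they derive from. Without the MOI label, the comparisons of WC and WCS with the chimera cross the Rn7s6 split, whose part in them was not tested. WC over the chimera had 0 members higher (background 8.66%) and 7 lower (5.05%), with a median of -0.42. The 7 were Ccne2, Ccne1, Cenpe, Bub1, Orc1, Rrm2 and Top2a. WCS over the chimera had 0 higher (9.16%) and 13 lower (6.27%), with a median of -0.48, and the ubiquitous genes had medians of 0.03 and -0.01. WCS over the chimera, both at MOI 100, had 0 higher (9.42%) and 13 lower (8.98%), with a median of -0.50, and there the ubiquitous median was -0.32. WC over WCS had 0 members higher (0.714%) and 0 lower (0.163%), with a median of 0.03 and ratios from -0.20 (Gins1) to 0.19 (Plk1).

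Within a construct, the library with the MOI 100 label was lower. The chimera at MOI 100 over the chimera had 0 members higher (background 13.8%) and 22 lower (10.3%), with a median of -0.58. WCS at MOI 100 over WCS had 0 higher (14.1%) and 29 lower (15.1%), with a median of -0.63. In both, Ccnb2 was the lowest member, 2.13-fold lower in the chimera (2.03 to 2.24) and 2.47-fold lower in WCS (2.34 to 2.60). The highest were E2f1 in the chimera (1.41-fold, 1.32 to 1.5) and Gins2 in WCS (1.33-fold, 1.27 to 1.39). The ubiquitous medians were -0.20 and -0.37, and the neuron marker sum was 740 without and 2500 with the label in the chimera, and 2180 and 5300 in WCS.

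The chimera and WCS with and without the MOI label form a crossed set of 4 libraries, the only part of the study that allows a test. Both terms entered 1 edgeR quasi-likelihood fit over 16079 genes, with 1 residual degree of freedom, and a gene was called at a Benjamini-Hochberg adjusted p under 0.05. Such a p measures how alike a difference was at the other factor's levels, not the spread between separate cultures. Of these 4 libraries WCS without the label alone lay on the high side of the Rn7s6 split (14.4 CPM, against 0.565 to 1.28 in the others). Both terms thus cross that split, and its part in them was not tested. For WCS against the chimera 23 of 44 members fell and 0 rose, against 5.49% and 5.84% of all genes tested. Mitotic kinases and checkpoint genes fell in 6 of 7 cases, spindle, centromere and chromosome genes in 7 of 8, and cyclins and CDKs in 5 of 7, but licensing genes in 2 of 9, fork genes in 1 of 6, nucleotide supply in 1 of 4 and transcription factors in 1 of 3. The smallest adjusted p was for Plk1 (log2 fold change -0.85, adjusted p = 0.0047), then Ccne1 (-0.93, adjusted p = 0.0076) and Aurka (-0.67, adjusted p = 0.01). Mki67 (-0.68, adjusted p = 0.013) and Rrm2 (-0.76, adjusted p = 0.013) followed. The licensing genes that fell were Orc1 (-0.60, adjusted p = 0.025) and Cdc6 (-0.62, adjusted p = 0.019), while Mcm2 had -0.16 (adjusted p = 0.53) and Mcm7 -0.19 (adjusted p = 0.47).

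For MOI 100 against no MOI label 37 members fell and 0 rose, against 12.2% and 13.4% of all genes tested. All 9 licensing genes and all 7 mitotic kinase and checkpoint genes fell, with 7 of 8 spindle, centromere and chromosome genes, 5 of 7 cyclins and CDKs, 4 of 6 fork genes, 3 of 4 genes of nucleotide supply and 2 of 3 transcription factors. Ccnb2 (-1.20, adjusted p = 0.0013), Aurkb (-1.03, adjusted p = 0.0018) and Bub1b (-0.95, adjusted p = 0.0029) led by adjusted p. Mybl2 fell by 0.96 on the log2 scale (adjusted p = 0.0048) and Cdt1 by 0.98 (adjusted p = 0.0046). Ccne1 had -0.16 (adjusted p = 0.44), Ccne2 0.11 (adjusted p = 0.60) and Mki67 -0.21 (adjusted p = 0.23), although all 3 fell in WCS against the chimera. In all, 20 members fell in both terms and 4 in neither, the latter being Gins1, Gins2, Tyms and E2f1. The difference between the terms was not tested.

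Of the members with TTTGAA in the promoter window, 10 of 13 fell in WCS against the chimera, as did 8 of 23 without it. For the MOI label the counts were 12 of 13 and 20 of 23. In WCS against the chimera the counts were 15 of 27 with CCAAT and 3 of 9 without. All 13 members with TTTGAA are among those with CCAAT, so these 2 splits are not separate. Of the 13, 4 are mitotic kinase and checkpoint genes, 5 spindle, centromere and chromosome genes and 2 cyclins or CDKs. With or without the motif, these classes fell in 6 of 7, 7 of 8 and 5 of 7 cases. Motif and role class are thus not separate either. For CAGCTG the counts were 5 of 7 with it and 13 of 29 without. The remaining motifs went the other way, with 2 of 5 and 16 of 31 for TTCGCGC and 3 of 9 and 15 of 27 for TTGGCGC. For CAGGTG they were 0 of 2 and 18 of 34, and for CAGATG 1 of 4 and 17 of 32. The part of the motifs was not tested. Each fit lost all member calls, in either term, when the other term was left out. At an unadjusted p under 0.05 in edgeR 3 members then remained for the construct and 19 for the MOI label. The calls were also lost when any 1 of the 4 libraries was left out. Those runs left out the other term too, so they mix construct and MOI label. They cannot show that the calls rest on a given library. Without the chimera 1 member had an unadjusted p under 0.05 for the construct and 2 for the MOI label, without the chimera at MOI 100 7 and 28, without WCS 10 and 19, and without WCS at MOI 100 0 and 6.

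**Figure D5:**
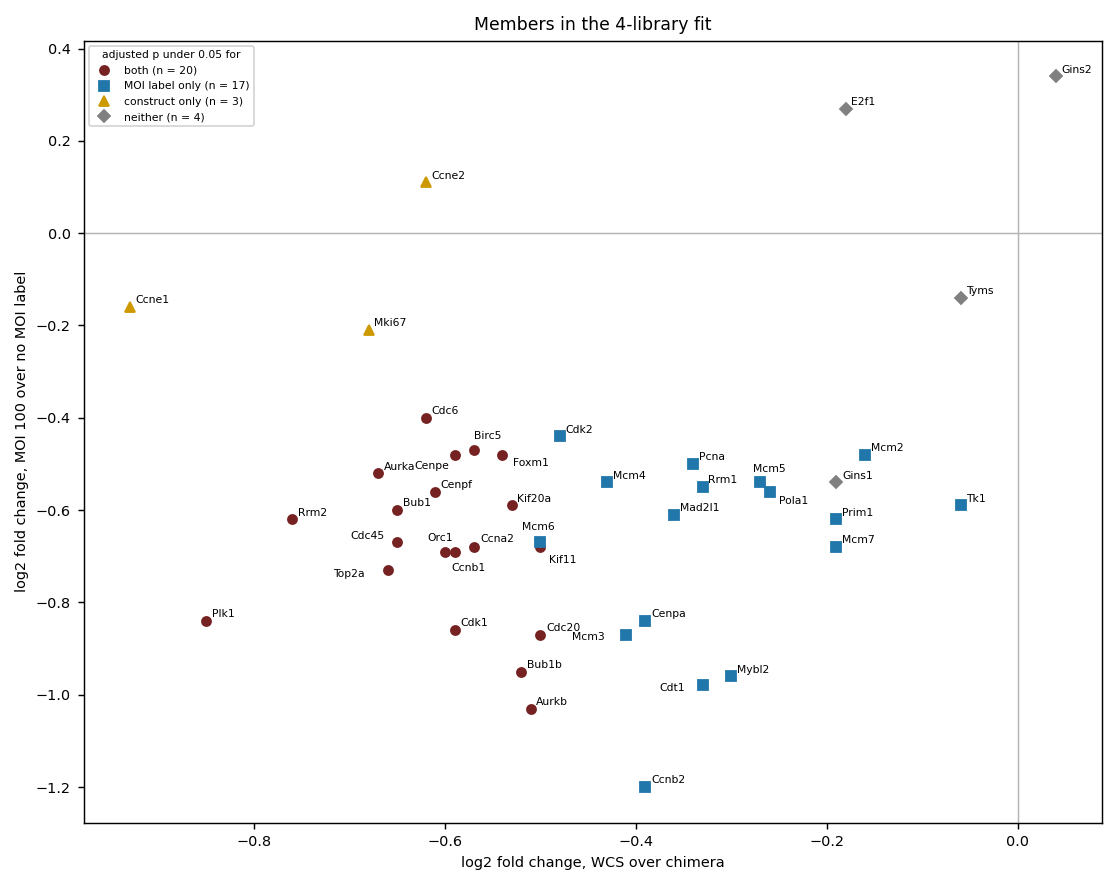
Each point is 1 of the 44 members, with its log2 fold change for WCS over chimera on the horizontal axis and for MOI 100 over no MOI label on the vertical axis, from the 4-library fit. Circles (20) passed the threshold for both, squares (17) for the MOI label, triangles (3) for the construct and diamonds (4) for neither; Ccnb2 is the lowest point and Ccne1 the leftmost.

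Other genes of the same pathways, which were not chosen as members, were counted in the same fit. Of 37 further replication genes 2 fell in WCS against the chimera (Gins3, -0.66, adjusted p = 0.044, and Mcm10, -0.55, adjusted p = 0.019) and 0 rose. Of 42 further mitosis genes 26 fell, among them Ube2c, a ubiquitin-conjugating enzyme of the anaphase-promoting complex (-1.07, adjusted p = 0.0045), and Hmmr, a spindle protein (-0.80, adjusted p = 0.0076), and 0 rose. For the MOI label 27 of 37 replication genes fell, led by Pold1 and Pold2, subunits of polymerase delta (-1.27, adjusted p = 0.0017, and -1.11, adjusted p = 0.0041), and 36 of 42 mitosis genes, led by Pttg1, securin (-1.13, adjusted p = 0.0024). Over GFP, in WCS at MOI 100, 28 of the 37 and 36 of the 42 were 1.5-fold lower or more (background 26.4%), and in the chimera 2 and 3 (background 13.3%).

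Cell-cycle regulators, such as CDK inhibitors, D cyclins and retinoblastoma proteins, were mixed. Of 31 tested, 9 fell and 0 rose in WCS against the chimera (5.49% and 5.84% of all genes), and 9 fell and 4 rose with the MOI label (12.2% and 13.4%). Cdkn1a was among the 9 that fell in WCS against the chimera (-3.4, adjusted p = 9.3e-05 in the edgeR fit). The 4 that rose with the MOI label were Gadd45a (1.11, adjusted p = 0.0015), Rb1 (0.83, adjusted p = 0.0087), Btg2 (0.61, adjusted p = 0.0098) and Cdkn1a (0.55, adjusted p = 0.026). Cdkn1a, the CDK inhibitor p21, stood at 187 CPM in MyoD, 92.4 in the chimera at MOI 100 and 59.9 in the chimera, with 5.98 to 13.5 CPM elsewhere. Btg2, an antiproliferative gene, ran from 22.6 CPM in GFP to 169 in WCS at MOI 100. Rb1, the retinoblastoma protein gene, stood at 13.3 CPM in GFP, 60.4 in WCS at MOI 100 and 77.7 in MyoD. Cdk6, a partner of D cyclins, fell with the MOI label (-1.78, adjusted p = 0.0023) from 22.3 to 6.25 CPM in the chimera and from 13.7 to 4.17 CPM in WCS.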

How the data were processed

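RNA-seq counts for 8 groups of transduced P19 cells, 1 library each, were used. The deposited table gives raw counts of reads per Ensembl gene. The authors' steps before counting were CASAVA 1.8.2 and TopHat2 2.0.8 on mm9, per the submitters' processing notes. Which counter, annotation and strand setting they chose is not given in the sources used here. Reads of overlapping genes, or of near-identical copies, may therefore sit in either gene. Symbols came from GENCODE M21, matched by Ensembl identifier for 87.5% of genes.

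CPM were computed with edgeR 4.0.16 after TMM scaling (factors 0.9348 to 1.085). At these depths 3 counts are 0.073 to 0.115 CPM. CPM are not scaled to length, so levels were compared between libraries and not between genes. Pairs of libraries were compared by ratios and their 95% Clopper-Pearson intervals (exact, conditional on the summed count of the pair), with no test of groups. For the chimera and WCS, 4 libraries entered a quasi-likelihood fit in edgeR (construct and MOI label, filterByExpr, Benjamini-Hochberg adjustment). Alternatives were DESeq2 1.42.0 size factors and Wald test, library totals, a pseudocount of 2 CPM, no minimum level, a 2-fold threshold, other filters and terms, all 8 libraries, and each of the 4 libraries left out. One more, the removal of the trend over transcript length, was chosen after seeing the data. R 4.3.3, Python 3.11.15 and pandas 2.3.3 were used. The fit was also run on simulated counts for 4 libraries. It called 35 of 50 genes changed 1.5-fold and 7 unchanged genes, with 16142 genes tested. Those counts held no MOI difference, so the run cannot show how the fit behaves on the real libraries.

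The members, role classes, other lists and motifs were chosen with earlier results of these data known. Values in all libraries are given for the 2 members of widest and the 1 of narrowest span in each role class. In comparisons the highest and lowest members and those called may be named, with the extreme genes of the other lists. Ccne1, Cdk2, Tk1, Cenpe and Cenpf outside these, and Cdkn1a and Cdk6, were chosen after their values were seen. Other libraries' markers came from fixed lists of undifferentiated P19, neuron, skeletal muscle, fibroblast, glia and ubiquitous genes.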

Additional observations from a re-analysis of the deposited data

Results flagged for a closer look

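Tk1, thymidine kinase, lay on opposite sides of 1 for the same contrast in the presence and absence of the MOI 100 label. The ratio of WCS to the chimera was 1.13 without the label, and that of WCS at MOI 100 to the chimera at MOI 100 was 0.802, each with a counting interval that did not include 1. It was the only one of the 44 members to do so in that contrast. The difference between these ratios was not tested, since each rests on 1 library per group.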

How the results depend on the processing

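No paired analysis was possible because each group had 1 library and the labels give no replicate numbers. With library totals in place of TMM factors the median over all genes moved by over 0.1 in 7 comparisons, to 0.16 for NeuroD2, 0.15 for the chimera at MOI 100, 0.11 for the chimera and 0.21 for WCS at MOI 100 over GFP, to -0.13 for MyoD over NeuroD2, 0.12 for the chimera over MyoD and 0.11 for WCS at MOI 100 over WCS. The members' medians moved with it, to -0.05 for the chimera and -0.96 for WCS at MOI 100 over GFP, 0.15 for MyoD over NeuroD2, 0.33 for the chimera over MyoD, -0.42 for WCS at MOI 100 over the chimera at MOI 100 and -0.50 for WCS at MOI 100 over WCS. Relative to all genes, the members of WCS at MOI 100 over GFP stood at -1.17 with totals and -1.16 with TMM. The shares of all genes counted as higher and lower became 29.5% and 14.9% for NeuroD2, 19.4% and 10.3% for the chimera and 34.8% and 19.9% for WCS at MOI 100 over GFP, 12.6% and 25% for MyoD over NeuroD2, and 18.9% and 10.8% for WCS at MOI 100 over WCS. Members counted as lower went from 29 to 17 in the last of these and from 13 to 8 in WCS over the chimera at MOI 100, and members higher in MyoD over NeuroD2 from 8 to 4 and in the chimera over MyoD from 1 to 5 (lower from 1 to 0). The other 90 medians under the alternatives stayed within the 95% order-statistic interval of the reported median over members. At 2-fold, members lower than GFP numbered 0 in MyoD and the chimera, 2 in WC, 7 in WCS, 10 in NeuroD2 and in the chimera at MOI 100, and 28 in WCS at MOI 100. Members past 1.5-fold and 2-fold numbered 8 and 2 (MyoD over NeuroD2) and 18 and 1 (chimera over NeuroD2) for higher. For lower they numbered 7 and 0 (WC over the chimera), 13 and 0 (WCS over the chimera), 13 and 1 (WCS over the chimera, both at MOI 100), 22 and 2 (chimera at MOI 100 over the chimera) and 29 and 5 (WCS at MOI 100 over WCS). With the length trend removed, the medians over GFP lay between -1.18 and -0.14 and the lower counts between 3 and 37, and Mki67 and Cenpf, both long, moved as given above.

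In the 4-library fit, DESeq2, other scalings, no filter and all 8 libraries gave 22 to 24 members lower for the construct and 32 to 38 for the MOI label. With the second term left out, 0 genes and 0 members were called for either (1137 and 3391 genes at an unadjusted p under 0.05 in edgeR). Leaving out 1 library in turn, without the second term, gave 0 to 103 genes called for the construct (1003 to 1317 at an unadjusted p under 0.05) and 0 for the MOI label (1697 to 2771), with 0 members called in each. The construct fold changes of Cdc20 (-0.98 to 0.01), Aurkb (-1.1 to 0.11) and Bub1b (-1.05 to 0.06) reversed at the upper end, without the chimera. Leaving out a library without the second term mixes construct and MOI label. With library totals Gins2 rose with the MOI label (0.42). Depth did not limit the members, whose lowest count was 523.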
